A study of Caenorhabditis elegans with 12 samples.

Results

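The *ugt* genes of *Caenorhabditis elegans* encode UDP-glucuronosyltransferases, and every gene whose WormBase symbol, looked up from its deposited identifier, begins with *ugt-* and a digit was taken as a member, which gave 67 of 46904 gene identifiers. UDP-glucuronosyltransferases are membrane proteins of the endoplasmic reticulum that join a sugar, taken from a UDP-sugar, to small fat-soluble compounds and so make them easier to excrete. They carry out the conjugating step of detoxification, after enzymes such as cytochromes P450 have added a reactive group, and in the worm many foreign compounds are recovered as glucosides. The family is much larger in nematodes than in mammals, the intestine is a main site of detoxification in this animal, and most members have no assigned substrate.

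Transcript levels were measured by RNA-seq of polyA RNA from whole young adult worms of 4 strains, with 3 libraries each. The wild type was N2. The *gsr-1a(syb266)* strain carries a CRISPR deletion of the first exon of *gsr-1*, which encodes the mitochondrial targeting sequence of glutathione reductase, and keeps the cytosolic isoform. The *trxr-2(tm2047)* strain carries a null allele of mitochondrial thioredoxin reductase, and the double mutant (*gsr-1a trxr-2*) carries both alleles. The mutations are in every cell, the worms were grown to young adults after synchronization, and the mutant strains had been outcrossed with N2. The question addressed was how these enzymes respond when one or both reductases are missing from mitochondria.

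The 12 libraries held 12114187 to 19688212 counted read pairs. Counts of *trxr-2* summed to 706 in wild type and 583 in *gsr-1a*, against 2 in *trxr-2* and 2 where both alleles were present. Counts of *gsr-1* ranged from 3132 to 5364 per library over all strains, and since the allele removes 1 exon of the gene they do not check it. Transcripts of the 6 vitellogenin genes, which encode yolk proteins, took 0.342% of the counts in wild-type library 1 and 1.79% in *trxr-2* library 1. The other 10 libraries had 3.57% to 6.78%. Calls of *ugt* genes that differ without the 4 libraries numbered 1 are therefore given. Worms were measured whole, so fewer cells of a type and less RNA per cell cannot be told apart. The study calls its replicates biological, but the labels do not say that the libraries of a strain came from separate cultures, and p-values measure the spread between these libraries only.

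All 67 members are annotated as protein coding. On WBcel235, 42 lie on chromosome V, 12 on IV, 5 on I, 4 on X, 3 on III and 1 on II. With a distance of at most 10 kb between starts, 37 of them form 12 runs of neighbours, the longest being the 8 genes from *ugt-12* to *ugt-13* on chromosome V. Of the 67 members, 56 had enough counts to be tested, and their mean levels ranged from 0.542 to 198 CPM (the counts of a gene relative to all counts of its library, with TMM, edgeR's correction for differences in library composition), with a median of 7.46. The other 11 members were *ugt-10*, *ugt-15*, *ugt-27*, *ugt-33*, *ugt-34*, *ugt-35*, *ugt-38*, *ugt-51*, *ugt-56*, *ugt-59* and *ugt-67*. Their counts summed to at most 88 over the 12 libraries, and no library held more than 1.27 CPM of any of them. Both *ugt-35* and *ugt-51* had 0 counts in every library. *ugt-51* lies wholly inside *abu-8* on the same strand, and read pairs that overlap 2 genes were not counted.

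Levels of different members were compared as CPM per kilobase of coding length. In wild type, *ugt-22* stood first with 101 ± 23.1, and *ugt-62*, *ugt-64*, *ugt-58* and *ugt-12* followed with 49.8 ± 11.6, 44.8 ± 5.203, 38.6 ± 3.04 and 32.1 ± 5.52 CPM per kilobase (mean ± SD, n = 3). The same 5 genes had the highest levels averaged over the 4 strains. The libraries of *ugt-22* lay above those of *ugt-62*, while the libraries of each later pair of neighbours in this order overlapped. The order changed in the double mutant, where *ugt-62* reached 357 ± 23.1 CPM per kilobase and came first. In the same strain *ugt-19* moved from position 27 to position 3 of the 67 members, at 42.3 ± 6.31 CPM per kilobase against 5.0996 ± 0.7097 in wild type. *ugt-50* moved from position 15 to 6 and *ugt-61* from 22 to 10.

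Summed over all members, the level was 646, 579 and 570.0 CPM per kilobase in the wild-type libraries and 911, 919 and 969.6 in the double mutant libraries. The *gsr-1a* libraries had 526, 555 and 482 and the *trxr-2* libraries 585, 548 and 497. The double mutant libraries thus lay above all 9 others. A single gene, *ugt-62*, held most of this difference, with 35.9% to 40.9% of the summed level in the double mutant against 6.57% to 9.73% in the other strains. Without *ugt-62* the sum was 549 ± 29.9 for wild type and 577 ± 33.4 for the double mutant (mean ± SD, n = 3), and the libraries of both strains overlapped. The double mutant libraries, at 539 to 602 without *ugt-62*, still lay above those of *gsr-1a* (443 to 511) and *trxr-2* (450 to 530). The 55 members that did not pass the test between these strains, tested or not, summed to 473 ± 31.2 and 419 ± 35.6.

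**Figure D1:**
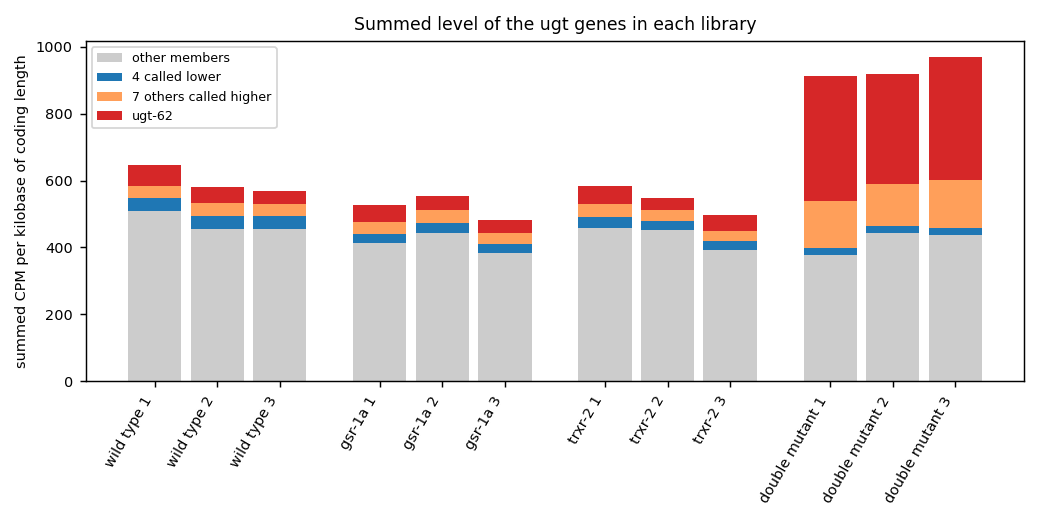
Summed level of the 67 *ugt* genes in each of the 12 libraries, in CPM per kilobase of coding length. Stacked bars separate *ugt-62* (red), the 7 other members called higher in the double mutant (orange), the 4 called lower (blue) and all others (grey). The double mutant libraries sit between 911 and 969.6, and the other 9 between 482 and 646.

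In the double mutants, 8 *ugt* genes rose against wild type and 4 fell. A gene was called where its adjusted p was under 0.05. The risers were *ugt-19*, *ugt-62*, *ugt-21*, *ugt-2*, *ugt-32*, *ugt-50*, *ugt-61* and *ugt-16*, and their levels rose by 2.195 to 8.303 times. The 4 that fell, *ugt-53*, *ugt-57*, *ugt-17* and *ugt-23*, were 1.58 to 3.04 times lower. The remaining 44 tested members did not pass edgeR's quasi-likelihood test at that threshold. DESeq2 called the same 12 and also called *ugt-26* and *ugt-44* lower (DESeq2 adjusted p of 0.0333 and 0.0474). Without the 4 libraries numbered 1 the same 12 were called and 3 more were higher, *ugt-18*, *ugt-24* and *ugt-47*, with adjusted p of 0.00586, 0.0451 and 0.017. The 8 risers were 14.3% of the tested members, where 12.5% of all 15004 genes tested rose in this comparison, and the 4 that fell were 7.14%, beside 6.3% of all genes. These shares are near those of all genes, so the comparison does not single out the family as a whole. The median log2 fold change was -0.08 over the 56 members and 0.03 over all genes.

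The largest amount of transcript was added by *ugt-62*, on chromosome III (4537277 to 4540644, minus strand). For *ugt-62*, CPM values were 100.1, 73.7 and 64.4 in the wild-type libraries and 593, 526 and 585 in those of the double mutants, with 80.3, 69.3 and 62.8 where only *gsr-1a* and 87.5, 57.3 and 74.5 where only *trxr-2* was mutated. The double mutant libraries did not overlap any of the other 9, and their lowest was more than 5 times the highest of those. The log2 fold change against wild type was 2.84 ± 0.20 (SE, edgeR adjusted p = 1.24e-05).

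The largest fold was that of *ugt-19*, on chromosome IV (6076692 to 6079945, minus strand), a gene for which the study also designed qPCR primers. The wild-type libraries had 9.35, 7.95 and 7.11 CPM of *ugt-19*, the *gsr-1a* libraries 7.49, 7.38 and 6.82, the *trxr-2* libraries 9.55, 7.03 and 6.41 and the double mutant libraries 71.97, 55.9 and 74.5. All 9 libraries without both alleles lay under 10 CPM and all 3 double mutant libraries above 55. Its log2 fold change was 3.05 ± 0.18 (edgeR adjusted p = 2.95e-06). On the same chromosome, *ugt-21* (9500311 to 9502568, plus strand) rose from a lower level. Levels of *ugt-21* were 19.998, 16.998 and 19.1 CPM in the double mutant libraries, 3.26, 4.68 and 4.24 in wild-type worms, 4.01, 4.99 and 4.69 with *gsr-1a* alone and 5.04, 4.795 and 3.96 with *trxr-2* alone. Again the double mutant stood apart from every other library, with a log2 fold change of 2.20 ± 0.18 (edgeR adjusted p = 4.47e-05).

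*ugt-50* lies on the X chromosome (12691573 to 12695652, plus strand) and hosts the microRNA gene *mir-62* on the same strand. Double mutant libraries 1 to 3 held 63.2, 57.3 and 61.6 CPM of *ugt-50*, against 17.8, 22.9 and 21.4 in wild type, while the single mutants held 17.8, 18.4 and 19.5 (*gsr-1a*) and 14.8, 16.8 and 18.1 (*trxr-2*). Its libraries agreed closely within each strain, and the log2 fold change of 1.55 ± 0.12 had the smallest standard error of the 8 (edgeR adjusted p = 3.63e-05). *ugt-61*, on chromosome V (4742427 to 4745373, plus strand), spread more widely in the double mutant. For *ugt-61*, CPM values were 11.7, 13.3 and 14.4 in the wild-type libraries and 41.4, 27.1 and 38.03 in those of the double mutants, with 15.4, 12.05 and 10.6 where only *gsr-1a* and 16.8, 13.4 and 10.7 where only *trxr-2* was mutated. The lowest double mutant library was still above the highest of the others, and the log2 fold change was 1.43 ± 0.21 (edgeR adjusted p = 0.0017).

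The other 3 risers also lie on chromosome V. *ugt-2* (10398717 to 10401307, plus strand) differed among the single mutant libraries more than the preceding genes. The wild-type libraries had 8.92, 9.69 and 7.45 CPM of *ugt-2*, the *gsr-1a* libraries 6.44, 13.7 and 7.72, the *trxr-2* libraries 10.4, 7.29 and 6.07 and the double mutant libraries 24.5, 34.2 and 31.6. The *gsr-1a* library 2 was its highest outside the double mutant, where all 3 libraries were higher still, and its log2 fold change was 1.79 ± 0.28 (edgeR adjusted p = 0.00219). *ugt-32* (3841859 to 3844007, minus strand) had the lowest level of the 8, with 355 read pairs over the 12 libraries. Levels of *ugt-32* were 2.37, 4.01 and 4.66 CPM in the double mutant libraries, 0.798, 1.198 and 1.27 in wild-type worms, 1.48, 1.01 and 1.12 with *gsr-1a* alone and 1.43, 1.51 and 1.09 with *trxr-2* alone. The groups did not overlap, but the double mutant libraries themselves spread widely around a log2 fold change of 1.73 ± 0.31 (edgeR adjusted p = 0.00334). *ugt-16* (12825024 to 12827432, plus strand), whose transcript is known to rise in worms given the anthelmintic albendazole, had the smallest rise. Double mutant libraries 1 to 3 held 7.302, 8.28 and 6.95 CPM of *ugt-16*, against 3.77, 3.05 and 3.46 in wild type, while the single mutants held 3.83, 2.87 and 2.08 (*gsr-1a*) and 3.01, 2.63 and 3.14 (*trxr-2*). No other strain reached the double mutant levels, and the log2 fold change was 1.13 ± 0.22 (edgeR adjusted p = 0.00508).

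**Figure D2:**
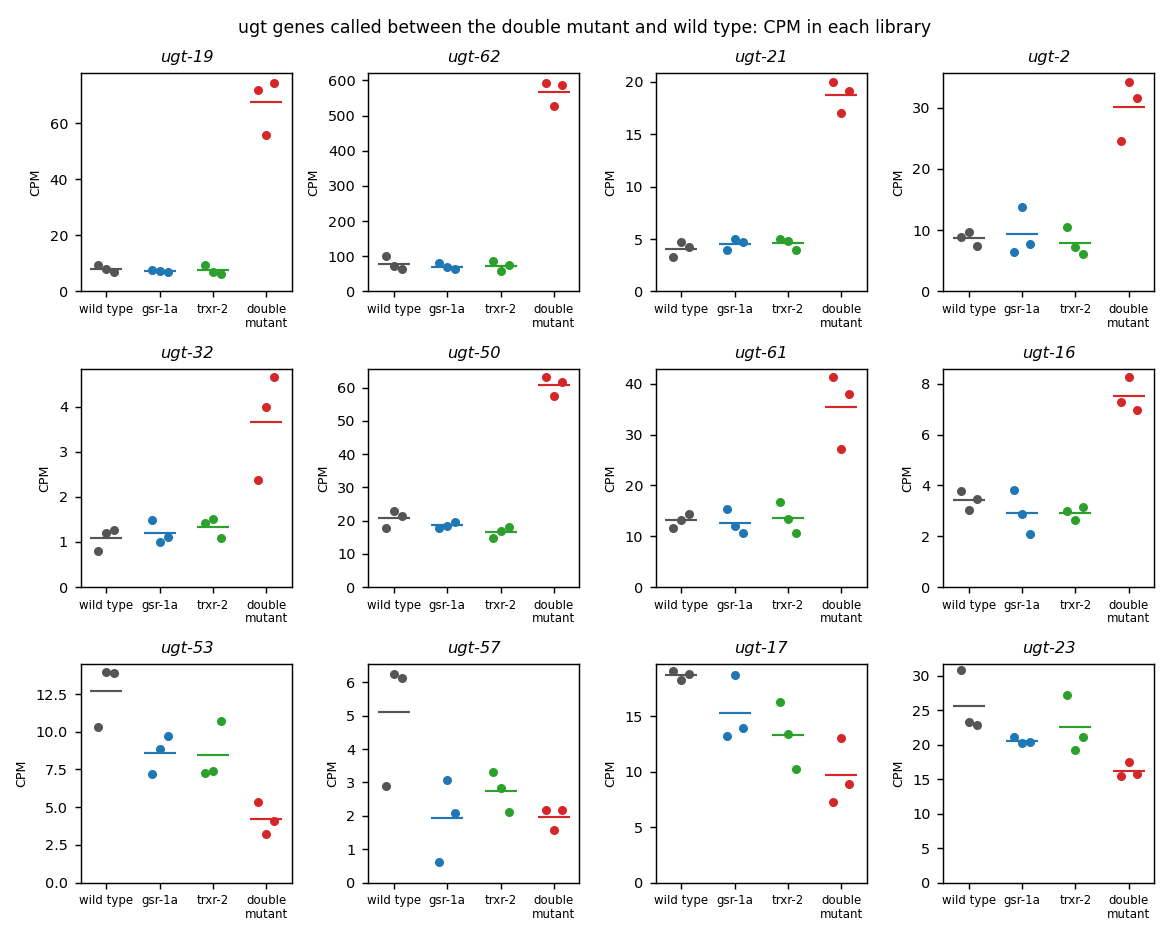
CPM of the 12 *ugt* genes called between the double mutant and wild type, 1 point per library and a line at the mean of each strain, with the vertical axis of each panel starting at 0. The 8 genes that rose (first 2 rows) have all 3 double mutant libraries above the 9 others, whereas in the last row *ugt-57* overlaps with both single mutants and *ugt-17* with *trxr-2*.

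Among the genes that fell, *ugt-53* on chromosome V (2849343 to 2852031, plus strand) had the largest change. For *ugt-53*, CPM values were 10.3, 13.9 and 13.9 in the wild-type libraries and 5.33, 3.19 and 4.07 in those of the double mutants, with 7.23, 8.86 and 9.74 where only *gsr-1a* and 7.29, 7.42 and 10.7 where only *trxr-2* was mutated. The single mutants lay between wild type and the double mutants, with *trxr-2* library 3 above the lowest wild-type library. This gave a log2 fold change of -1.60 ± 0.24 (edgeR adjusted p = 0.00175). *ugt-23*, on the X chromosome (9922910 to 9925173, minus strand), was also lowest in all 3 double mutant libraries. The wild-type libraries had 30.9, 23.4 and 22.8 CPM of *ugt-23*, the *gsr-1a* libraries 21.2, 20.2 and 20.4, the *trxr-2* libraries 27.2, 19.2 and 21.1 and the double mutant libraries 15.5, 17.4 and 15.7. Its change was small, with a log2 fold change of -0.66 ± 0.16 (edgeR adjusted p = 0.0139).

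*ugt-17*, on chromosome V (10102592 to 10104946, minus strand), was nearly equal in the 3 wild-type libraries. Levels of *ugt-17* were 7.24, 12.99 and 8.85 CPM in the double mutant libraries, 19.1, 18.2 and 18.8 in wild-type worms, 13.2, 18.7 and 13.9 with *gsr-1a* alone and 16.2, 13.4 and 10.2 with *trxr-2* alone. The double mutants overlapped with *trxr-2*, and double mutant library 2 was the highest of its strain. It had a log2 fold change of -0.94 ± 0.23 (edgeR adjusted p = 0.0153). Without double mutant library 1 or 3 the adjusted p was 0.0614 or 0.0669.

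*ugt-57*, on the X chromosome (6991727 to 6994162, plus strand), was low in the single mutants too, which overlapped with the double mutants. Double mutant libraries 1 to 3 held 2.17, 1.57 and 2.16 CPM of *ugt-57*, against 2.901, 6.26 and 6.14 in wild type, while the single mutants held 0.609, 3.08 and 2.08 (*gsr-1a*) and 3.31, 2.82 and 2.11 (*trxr-2*). Wild-type library 1 stood below the other 2 of its strain and within the range of *trxr-2*. The log2 fold change was -1.39 ± 0.44 (edgeR adjusted p = 0.0473), and the gene was called in 9 of the 18 alternative fits. It lost its call with the replicate block (adjusted p = 0.0552) and without wild-type library 2 or 3, *trxr-2* library 2 or 3, *gsr-1a* library 3 or any double mutant library, with adjusted p of 0.0539 to 0.129.

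*ugt-22*, which is known to alter the worm's response to albendazole, did not pass the test. For *ugt-22*, CPM values were 205, 144 and 138 in the wild-type libraries and 113, 129 and 138 in those of the double mutants, with 133, 137 and 114 where only *gsr-1a* and 145, 145 and 107 where only *trxr-2* was mutated. Wild-type library 1 was the highest, the double mutants and *trxr-2* overlapped with the remaining wild-type libraries, and *gsr-1a* lay just below them. The log2 fold change of the double mutant was -0.36 ± 0.17 (edgeR adjusted p = 0.176). The other 3 members of high level moved as little. The wild-type libraries had 76.1, 64.7 and 61.2 CPM of *ugt-64*, the *gsr-1a* libraries 67.3, 62.9 and 52.7, the *trxr-2* libraries 61.9, 67.005 and 56.6 and the double mutant libraries 53.4, 58.03 and 58.2. Levels of *ugt-58* were 61.9, 65.4 and 65.4 CPM in the double mutant libraries, 67.3, 58.1 and 59.98 in wild-type worms, 56.2, 55.6 and 55.6 with *gsr-1a* alone and 60.4, 63.3 and 57.4 with *trxr-2* alone. Double mutant libraries 1 to 3 held 44.995, 38.8 and 47.2 CPM of *ugt-12*, against 60.6, 43.01 and 50.4 in wild type, while the single mutants held 47.5, 37.9 and 36.8 (*gsr-1a*) and 55.3, 44.3 and 42.97 (*trxr-2*). In each of them the double mutants overlapped with *trxr-2*. They also overlapped with wild type in *ugt-58* and *ugt-12*, while every double mutant library of *ugt-64* lay below every wild-type library. In *ugt-58* they lay above *gsr-1a*. Log2 fold changes of *ugt-64*, *ugt-58* and *ugt-12* against wild type were -0.25 ± 0.12, 0.06 ± 0.09 and -0.23 ± 0.16 in that order, with edgeR adjusted p of 0.181, 0.705 and 0.332. *ugt-18*, singled out here after its values were seen, had as large a fitted fold as *ugt-2* without passing the test. For *ugt-18*, CPM values were 1.23, 0.544 and 0.292 in the wild-type libraries and 2.04, 2.003 and 2.82 in those of the double mutants, with 0.435, 1.91 and 1.12 where only *gsr-1a* and 6.39, 0.263 and 0.273 where only *trxr-2* was mutated. Its *trxr-2* library 1 was higher than every other library, and the other 2 of that strain were the lowest of all. Its log2 fold change in the double mutants was 1.79 ± 1.01 (edgeR adjusted p = 0.243), and without *trxr-2* library 1 the adjusted p was 0.0307, and 0.00586 without the 4 libraries numbered 1.

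**Figure D3:**
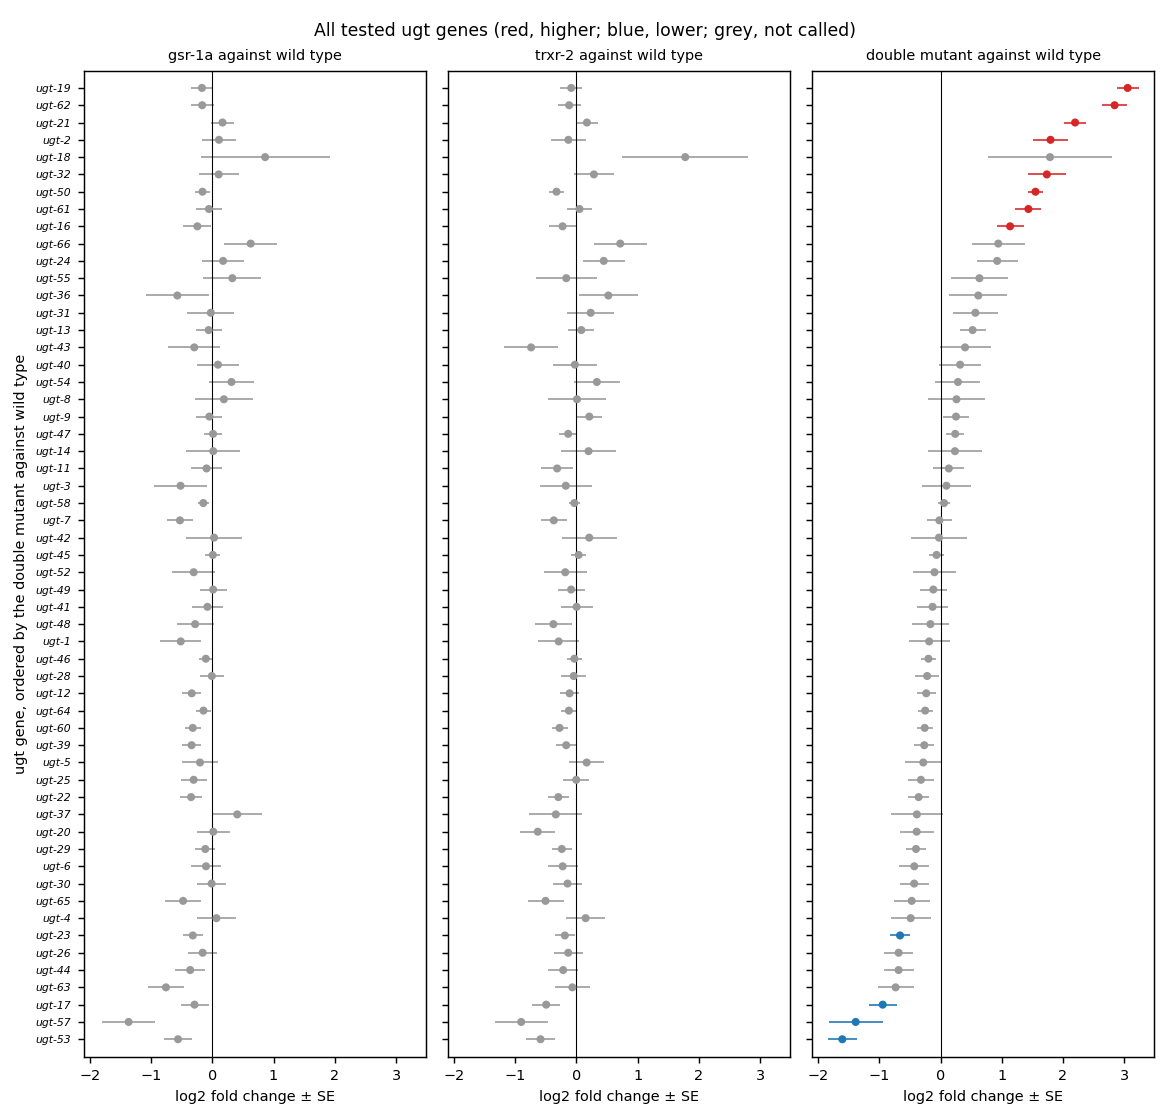
Log2 fold change against wild type (horizontal axis, point ± SE) of the 56 tested *ugt* genes in *gsr-1a*, *trxr-2* and the double mutant, with the genes in the same order in each panel. Red marks genes called higher and blue genes called lower at an adjusted p of 0.05, and no gene is coloured in the panels of the single mutants.

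Every double mutant library lay above every wild-type library for 12 tested members and below for 12 others. Each count is 21.4% of the tested members, beside 23.9% of all genes that were higher and 21.6% that were lower by the same rule. All 3 double mutant libraries lay above the 9 others for 8 members, which were the 8 risers, and below them for 2, *ugt-53* and *ugt-23*, beside 10.7% of all genes that were above and 5.9% that were below.

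Markers of other cells moved in the same comparison, in which 12.5% of all genes tested rose and 6.3% fell. Of 8 markers of the intestine, where many detoxification enzymes are made, 4 rose and 0 fell, and their summed level was 1016 to 1232 CPM in the double mutants against 662 to 932 in wild type, 845 to 1184 with *gsr-1a* alone and 725 to 1107 with *trxr-2* alone. Their median log2 fold change was 0.44, beside -0.08 over the 56 tested *ugt* genes and 0.03 over all genes. Of 8 sperm markers, 6 were tested and all 6 rose, with a summed level of 91.8 to 201 CPM in the double mutants against 26.8 to 42.2 in wild type, 51.97 to 95.7 with *gsr-1a* alone and 23.9 to 52.5 with *trxr-2* alone, and 1 sperm marker was at 0 in each strain. Of 8 markers each of hypodermis and neurons, 1 of each rose and 1 of hypodermis fell. None of the 6 muscle, 4 pharynx, 6 germline, 7 oocyte and 6 yolk markers passed the test by edgeR, and every gene of these lists had counts in every strain. Their median log2 fold changes were 0.80 for muscle, 0.82 for pharynx, 0.27 for germline, 0.16 for oocytes and -0.90 for yolk. Summed muscle markers had 3761 to 4002 CPM in the double mutants against 1174, 2499 and 3034 in wild-type libraries 1 to 3, without overlap, while *gsr-1a* had 2612 to 4822 and *trxr-2* 2474 to 4538. The summed pharynx markers had 179.5 to 236 CPM in the double mutants against 32.6, 109 and 178.1 in wild-type libraries 1 to 3. These did not overlap either, though only narrowly, and those of yolk did. With *gsr-1a* alone the pharynx sum was 134 to 256 CPM and with *trxr-2* alone 77.7 to 207, both overlapping with the double mutants. Of all single genes tested, 23.9% had every double mutant library above wild type. The part of these cells in the changes of the *ugt* genes was not tested.

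No *ugt* gene passed the test in either single mutant against wild type. For *gsr-1a*, 0 of 56 members were called by edgeR's quasi-likelihood test and 0 by DESeq2, while 0.0267% of all genes tested were called. At an unadjusted p under 0.05, 0 members were higher and 5 lower, namely *ugt-57*, *ugt-53*, *ugt-63*, *ugt-60* and *ugt-7*, beside 4.63% of all genes that were higher and 3.63% that were lower by that rule. The lowest adjusted p was 0.506, for *ugt-57*, with a log2 fold change of -1.37 ± 0.44. For *trxr-2*, 0 members were called by either tool, beside 0.0666% of all genes. Unadjusted p was under 0.05 for 3 members that were lower, *ugt-53*, *ugt-50* and *ugt-20*, and for 0 that were higher, beside 4.47% of all genes that were lower and 1.37% that were higher. *ugt-53* thus had similar values in both, with log2 fold changes of -0.56 ± 0.23 for *gsr-1a* and -0.59 ± 0.23 for *trxr-2*, neither of which passed the test. Without the 4 libraries numbered 1, *ugt-57* was lower in *trxr-2* with an adjusted p of 0.0432. Of the 8 genes that rose in the double mutants, log2 fold changes in the single mutants ran from -0.33 (*ugt-50* in *trxr-2*) to 0.29 (*ugt-32* in *trxr-2*).

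The comparison of the double mutants with each single mutant asks what the loss of the second reductase adds. It gave 8 higher members in both cases, the same 8 as against wild type, and 1 lower member, *ugt-53*. Against *gsr-1a*, the 8 were 14.3% of the tested members, beside 3.17% of all genes, and *ugt-53* stood beside 0.407% of all genes that were lower. Against *trxr-2*, 10.8% of all genes were higher and 0.853% lower. Without the 4 libraries numbered 1, *ugt-47* was also higher against *gsr-1a* (adjusted p = 0.0234), and *ugt-18*, *ugt-47* and *ugt-55* were also higher against *trxr-2* (adjusted p of 0.00418, 0.0189 and 0.0316). Double mutants and wild type, *gsr-1a* or *trxr-2* share the double mutant libraries, so these comparisons are not independent of each other.

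The fitted changes were of similar size against each single mutant. The log2 fold change of *ugt-19* was 3.22 ± 0.18 against *gsr-1a* and 3.14 ± 0.18 against *trxr-2*, and that of *ugt-62* was 3.01 ± 0.20 and 2.96 ± 0.20. Those of *ugt-21* were 2.03 ± 0.18 and 2.02 ± 0.18, and *ugt-50* followed with 1.71 ± 0.13 and 1.87 ± 0.13. For these 4 genes edgeR adjusted p was at most 8.89e-05. The other 4 risers ranged from 1.38 (*ugt-16*) to 1.69 (*ugt-2*) against *gsr-1a*, with adjusted p of 0.00254 to 0.0159, and from 1.36 (*ugt-16*) to 1.93 (*ugt-2*) against *trxr-2*, with adjusted p of 0.00148 to 0.00716. *ugt-53* fell by 1.05 on the log2 scale against *gsr-1a* (SE 0.24, adjusted p = 0.0377) and by 1.02 against *trxr-2* (SE 0.24, adjusted p = 0.0134). *ugt-32* lost its call against *gsr-1a* without *gsr-1a* library 2 or 3 or double mutant library 3, *ugt-2* without *gsr-1a* library 3, and *ugt-53* in 8 of the 12 fits without 1 library, with adjusted p of up to 0.167. Against *trxr-2*, *ugt-53* lost its call without double mutant library 2 or 3 or *trxr-2* library 3 and with only the 2 strains compared, with adjusted p of 0.0517 to 0.0664.

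The interaction term asks whether the change with loss of *trxr-2* differs between *gsr-1a* and wild type. It was called for 5 members, *ugt-19*, *ugt-62*, *ugt-50*, *ugt-21* and *ugt-16*, all higher, which is 8.93% of those tested beside 0.726% of all genes. None was lower, beside 0.04% of all genes, and 0 members were lower by DESeq2 or at an unadjusted p under 0.05. By DESeq2, 7 were higher, these 5 with *ugt-2* and *ugt-61*. Loss of *trxr-2* gave *ugt-19* a log2 fold change of -0.09 ± 0.18 in wild type and 3.22 ± 0.18 in *gsr-1a*, a difference of 3.31 ± 0.25 (edgeR adjusted p = 0.000163). For *ugt-62* the values were -0.12 ± 0.19 and 3.01 ± 0.20, with a difference of 3.12 ± 0.27 (edgeR adjusted p = 0.000164). The difference was 2.03 ± 0.18 for *ugt-50* (edgeR adjusted p = 0.000164), 1.86 ± 0.26 for *ugt-21* (edgeR adjusted p = 0.00496) and 1.60 ± 0.32 for *ugt-16* (edgeR adjusted p = 0.0441).

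For the other 3 risers the difference did not pass the test by edgeR, with 1.82 ± 0.40 for *ugt-2* (adjusted p = 0.0673), 1.44 ± 0.30 for *ugt-61* (adjusted p = 0.0538) and 1.34 ± 0.45 for *ugt-32* (adjusted p = 0.234). DESeq2 called *ugt-2* (adjusted p = 0.00203) and *ugt-61* (adjusted p = 0.00172). *ugt-16* kept its call in 6 of 17 alternative fits, with adjusted p of up to 0.122, and the other 4 in all 17. Without the 4 libraries numbered 1 all 8 risers were called.

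**Figure D4:**
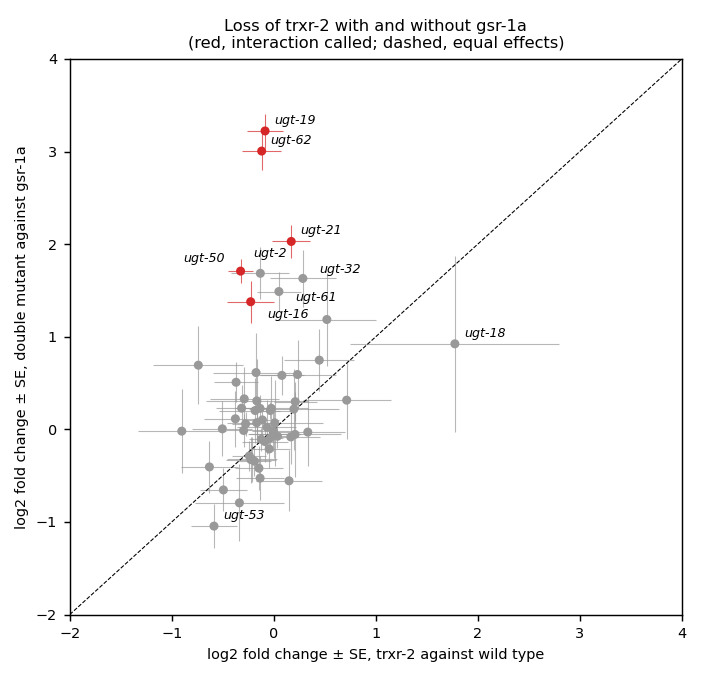
Effect of losing *trxr-2* on the 56 tested *ugt* genes, as the log2 fold change ± SE in wild type (horizontal axis, *trxr-2* against wild type) and in *gsr-1a* (vertical axis, double mutant against *gsr-1a*). Red points have a called interaction, and the dashed line marks equal effects. *ugt-19* and *ugt-62* sit near 0 on the horizontal axis and above 3 on the vertical axis.

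Several members that changed have neighbours that did not pass the test. Of the tested members, 29 lie in runs, of which 3 rose and 1 fell, and 27 lie outside runs, of which 5 rose and 3 fell. Among all genes tested, 12.5% rose and 6.3% fell. Since 44 of the 56 tested members were not called, a neighbour without a call was the common case. *ugt-19* and *ugt-20* are on the same strand, 961 bases apart. The wild-type libraries had 3.19, 2.78 and 1.9002 CPM of *ugt-20*, the *gsr-1a* libraries 2.699, 2.65 and 2.56, the *trxr-2* libraries 2.105, 1.25 and 1.71 and the double mutant libraries 1.45, 2.33 and 2.16. *ugt-20* therefore stayed in the same low range in every strain, with a log2 fold change of -0.39 ± 0.28 in the double mutants (edgeR adjusted p = 0.354). As the log2 ratio of *ugt-19* to *ugt-20* within a library (with 0.1 CPM added to each), the 3 wild-type libraries gave 1.52, 1.48 and 1.85 and the double mutant libraries 5.54, 4.53 and 5.04. The ratios did not overlap, and their means differed by 3.42 (two-sided exact permutation test, p = 0.1, the smallest that 3 against 3 libraries allow). *ugt-19* was chosen because it rose in these same libraries, so this test adds no separate support for a difference from *ugt-20*.

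*ugt-2* lies 899 bases downstream of *ugt-1* on the same strand. Levels of *ugt-1* were 3.82, 4.17 and 4.13 CPM in the double mutant libraries, 6.74, 3.702 and 3.46 in wild-type worms, 2.44, 3.98 and 3.14 with *gsr-1a* alone and 5.71, 3.02 and 2.59 with *trxr-2* alone. *ugt-1* was highest in wild-type library 1, and its log2 fold change was -0.19 ± 0.33 (edgeR adjusted p = 0.732). The log2 ratio of *ugt-2* to *ugt-1* was 0.40, 1.36 and 1.09 in wild type and 2.65, 3.01 and 2.91 in the double mutants, a difference of means of 1.91 (two-sided exact permutation test, p = 0.1). *ugt-16* has *ugt-15* 337 bases downstream and *ugt-18* 2265 bases upstream, all on the plus strand. The log2 ratio of *ugt-16* to *ugt-15* was higher by 2.79 in the double mutants (two-sided exact permutation test, p = 0.1) and that to *ugt-18* lower, at 2.34 in wild type and 1.69 in the double mutants (p = 0.3 in the exact permutation test). For all 4 pairs together, the adjusted p was at least 0.133, and with 3 libraries per strain it could not fall under 0.1. The first gene of each pair was chosen for its rise in these same libraries. These tests therefore cannot decide whether neighbours change apart from each other. *ugt-15* itself was not tested across all genes, with 7 counts summed over the double mutant libraries, 29 over those of wild type, 35 over *gsr-1a* and 16 over *trxr-2*. Double mutant libraries 1 to 3 held 1, 6 and 0 counts of *ugt-15*, so the 0.1 CPM added largely set its ratio there. *ugt-16* itself had a log2 fold change of 1.13. In the longest run, from *ugt-12* to *ugt-13*, the 6 tested members had log2 fold changes of -0.23 (*ugt-12*) to 0.52 (*ugt-13*), with edgeR adjusted p of 0.108 or more. The 4 members from *ugt-5* to *ugt-3* had log2 fold changes of -0.49 (*ugt-4*) to 0.10 (*ugt-3*), with adjusted p of 0.249 or more.

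**Figure D5:**
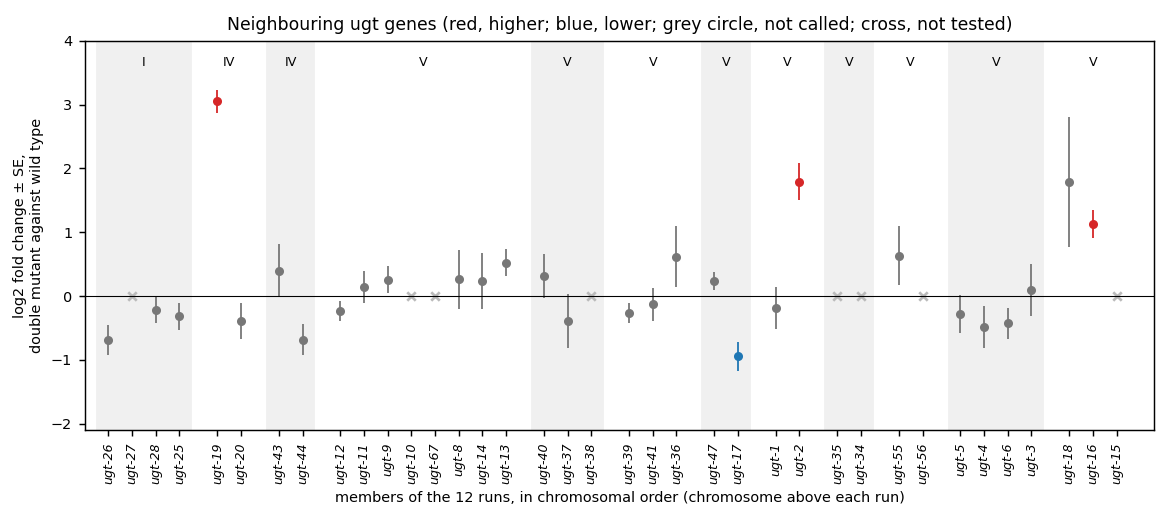
Log2 fold change ± SE of the double mutant against wild type for the 37 members in the 12 runs of neighbours, in chromosomal order and with the chromosome named above each run. Red marks a gene called higher, blue a gene called lower, grey circles genes that did not pass the test, and crosses at 0 the 8 members that were not tested. *ugt-19* and *ugt-2* rise above neighbours that did not pass the test, while *ugt-16* lies below *ugt-18*, which did not pass it either.

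In a list of 15 genes that supply or also use the sugar donor, 8 were tested. Against wild type, 1 of the 8 rose and 1 fell in the double mutants, beside 12.5% and 6.3% of all genes. The median log2 fold change of the 8 was -0.35, beside 0.03 over all genes, and 7 of them had a value below 0. *glct-6*, a gene of the glucuronyltransferase-like family, rose from 5.66 ± 1.02 to 11.6 ± 2.11 CPM (mean ± SD, log2 fold change 1.03 ± 0.20, edgeR adjusted p = 0.00473). *gale-1*, which encodes UDP-galactose 4-epimerase, fell from 105 ± 13.5 to 75.997 ± 9.31 CPM (log2 fold change -0.47 ± 0.14, edgeR adjusted p = 0.0389). *sqv-4*, which makes UDP-glucuronic acid, had 238 ± 29.7 CPM in wild-type worms, 195 ± 2.85 in double mutants and did not pass the test (edgeR adjusted p = 0.0981). Against *gsr-1a* and *trxr-2*, the double mutant values of *glct-6* had edgeR adjusted p of 0.0834 and 0.0961 and those of *gale-1* 0.18 and 0.187.

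Among 20 regulators of detoxification genes, all of which were tested, only *nhr-8* passed the test against wild type. It rose, beside 12.5% of all genes tested that rose and 6.3% that fell. The list was thus not called more often than genes at large. *nhr-8* encodes a nuclear hormone receptor with a known role in resistance to foreign compounds. Its level was 25.7 ± 3.07 CPM in the double mutants, 15.4 ± 1.92 in wild type, 12.2 ± 1.94 with *gsr-1a* alone and 12.03 ± 2.53 with *trxr-2* alone (mean ± SD, n = 3), with a log2 fold change of 0.74 ± 0.18 against wild type (edgeR adjusted p = 0.0161). It was also higher in the double mutants than in either single mutant, and its interaction term was called (edgeR adjusted p = 0.0301). The transcript of *skn-1*, which encodes the main regulator of the oxidative stress response, had a log2 fold change of 0.40 ± 0.30 (edgeR adjusted p = 0.38). Its level spread widely in wild type, at 193 ± 84.6 CPM, against 255 ± 4.39 in the double mutants (mean ± SD, n = 3). The transcript of *atfs-1*, which encodes the transcription factor of the mitochondrial unfolded protein response, had a log2 fold change of 0.31 ± 0.13 (edgeR adjusted p = 0.109). These are transcript levels, and the activity of the proteins was not analysed here. The study itself reports that a tagged ATFS-1 protein was constitutively nuclear in the double mutants.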

How the data were processed

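Whole young adult worms of 4 strains were measured by stranded polyA RNA-seq in 3 libraries each, grouped by the strain and replicate number that the labels give. The authors deposited raw counts of read pairs per gene, 1 file per library. Per the file headers, featureCounts 2.0.0 counted pairs over whole gene spans of Ensembl release 97 on WBcel235, in the sense direction, and left out pairs with more than 1 alignment or more than 1 overlapping gene, so near-identical members lose reads and introns are counted. The submitters' processing notes also name FastQC, HISAT2 and SAMtools. Symbols were matched for 93.8% of the 46904 identifiers. Coordinates are those of the deposited files, and coding lengths come from Ensembl release 115 of the same build, in which 14 of the 67 members have identical coordinates.

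TMM normalization and tests used edgeR 4.0.16 under R 4.3.3. Genes with low counts were removed by edgeR's filterByExpr with the strain as group, which left 15004. One quasi-likelihood fit to all 12 libraries, with 8 residual degrees of freedom, gave the 6 comparisons, with p-values adjusted by Benjamini-Hochberg across all of these genes and calls made under 0.05. The fit was tested on simulated counts drawn with its own estimates of the spread, so that test does not cover libraries that stand apart. Standard errors are the size of the log2 fold change over the square root of F. CPM errors are SDs over 3 libraries. With totals of 12114187 to 19688212, the depth limits mainly the members under 1 CPM. No 2 libraries of the same strain agreed within sampling noise.

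Alternatives were DESeq2 1.42.0, RLE size factors, no filter on low counts, the replicate number as a block, only the strains compared, leaving out each library, and leaving out all 4 libraries numbered 1. Deviations of same-numbered libraries correlated at over 0.1 in every pair for wild type with *gsr-1a* (0.13 to 0.231) and with *trxr-2* (0.266 to 0.541). In the other comparisons not every such pair did so. Some differently numbered libraries also correlated at over 0.1, as wild-type library 3 with *trxr-2* library 2 (0.379) and wild-type library 2 with *gsr-1a* library 3 (0.111). Neither the labels nor these values show that the numbers pair the libraries. The members named are those called in any comparison, the 5 of highest CPM per kilobase, and *ugt-19*, *ugt-22* and *ugt-16*. Other members are named as neighbours of these, at the end of a range, in a short count or for a call that an alternative changed, and were chosen after their values were seen. Lists of sugar supply genes, regulators and cell type markers were used beside them, and 2 of the sugar supply genes were not matched by symbol. The members, lists and tests were chosen with earlier results of these data known. Protein and promoter sequences of the members were not analysed here.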

Additional observations from a re-analysis of the deposited data

Results flagged for a closer look

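The effect of losing *trxr-2* differed between *gsr-1a* and wild type for 5 *ugt* genes, by the interaction term of edgeR's quasi-likelihood fit. On the log2 scale the effect in *gsr-1a* was larger by 3.12 for *ugt-62*, 3.31 for *ugt-19*, 2.03 for *ugt-50*, 1.86 for *ugt-21* and 1.60 for *ugt-16*, with adjusted p of 0.000164, 0.000163, 0.000164, 0.00496 and 0.0441 in that order. In wild type, loss of *trxr-2* alone changed none of the 5 at the threshold, with log2 fold changes of -0.33 (*ugt-50*) to 0.17 (*ugt-21*). Strains had 3 libraries each, too few to flag single libraries as standing apart.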

How the results depend on the processing

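All 8 rises in the double mutants against wild type were called in each of the 18 alternative fits, as were the falls of *ugt-53* and *ugt-23*, and none of the 12 called genes changed direction in this comparison. Leaving out 1 library in turn gave 8 to 10 higher and 2 to 8 lower members against wild type, 6 to 8 higher and 0 to 2 lower against *gsr-1a*, 8 to 9 higher and 0 to 2 lower against *trxr-2*, and 4 to 7 in the interaction. The 2 lower members against wild type were left without double mutant library 1 or 3 (*ugt-53* and *ugt-23*), and the 8 came without library 2. The number lower against *trxr-2*, 1 in the fit reported, was 2 with DESeq2, 2 with RLE size factors (both with *ugt-23* added) and 0 with only the strains compared. Without the 4 libraries numbered 1, 1 member (*ugt-57*) was lower in *trxr-2* than in wild type, 8 had a called interaction, and 11, 9 and 11 were higher in the double mutants than in wild type, *gsr-1a* and *trxr-2*, where the fit reported gave 8 each. With the replicate block, 9 members were higher and 5 lower against wild type, with *ugt-57* lost and *ugt-26*, *ugt-44* and *ugt-66* added, and no other count of calls in the 6 comparisons changed, although *ugt-61* replaced *ugt-16* in the interaction. For each single mutant against wild type, the block gave 0 calls as before. The causes of these differences were not tested. The 5 members of highest level were the same with the length of the gene span, and runs numbered 10 at 5 kb and 11 at 20 kb. The interaction needs all 4 strains, so the fit with only the strains compared was not run for it. Depth limits what can be said of the 11 members not tested.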

Other observations

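Double mutant library 2 differed from libraries 1 and 3 in several members that were lower in the double mutants. *ugt-44* had 22.9 CPM in library 2 against 11.2 and 12.9 in libraries 1 and 3. *ugt-63* had 28.7 CPM against 12.96 and 15.9, and *ugt-26* 15.8 against 9.08 and 12.2. All 3 did not pass the test against wild type with all libraries (edgeR adjusted p of 0.0727 for *ugt-44*, 0.103 for *ugt-63* and 0.0627 for *ugt-26*) and were called lower without library 2 (adjusted p of 0.00377, 0.0119 and 0.0292). With all libraries, DESeq2 called *ugt-44* and *ugt-26* lower (DESeq2 adjusted p of 0.0474 and 0.0333). These genes were chosen after their values were seen.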
